A study of Mus musculus with 75 samples.

Results

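The 10 genes described here encode proteins that coat, fuse or empty lipid droplets. They were taken by symbol from a written list of droplet genes, Plin1, Plin2, Plin3, Plin4, Plin5, Cidea, Cideb, Cidec, G0s2 and Pnpla2, and all 10 were found among the 55536 genes of the count table. The table covers 75 bulk RNA-seq libraries from livers of male C57Bl/6 mice. The mothers of the exposed mice took up tributyltin (TBT), an organotin compound, at a dose of 0.5 mg/kg body weight each day (3.07 µM in the water they drank) up to weaning, and the mothers of the controls were given vehicle. Livers of 3-week-old mice gave 8 vehicle libraries, of which 2 came from 1 mouse and were summed to leave 7 samples, and 8 TBT libraries. The 5-month livers comprise 8 of vehicle mice, 16 of exposed mice labelled low-risk and 10 of exposed mice labelled high-risk, where risk refers to liver tumors. At 10 months there were 6 vehicle livers, 5 low-risk TBT livers, 6 libraries of uninvolved liver from high-risk TBT mice and 7 tumors of TBT mice. A further vehicle library is labelled as a tumor and entered no comparison. How risk was assigned to the 5-month mice is not given in the labels, so it is not known whether these expression values took part in it. Litters are not given either, and the p-values measure the spread between these samples.

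A lipid droplet is a core of triglyceride and sterol esters under a single phospholipid layer, and in hepatocytes it is the main store of fat. Perilipins, encoded by the Plin genes, cover its surface and control the access of lipases. The CIDE proteins, Cidea, Cideb and Cidec, sit where droplets touch and move lipid from the smaller into the larger droplet. Adipose triglyceride lipase, the product of Pnpla2, cleaves the first fatty acid from triglyceride, and G0s2 is a small protein that binds this lipase and inhibits it. Several of these genes are known targets of the PPAR nuclear receptors, and TBT is known as an agonist of PPARγ and of its partner RXR. Plin1 and Cidea are best known from adipocytes, Plin2 and Cideb from hepatocytes, Plin5 from tissues that oxidise much fat, and Cidec from adipocytes and fatty liver.

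Total counts per library ran from 2831666 to 45448610. Libraries that stood apart were 5-month vehicle 9 (2831666 counts, 38206 genes detected), 5-month high-risk 10 (39669 genes detected), and 5-month high-risk 15, 5-month low-risk 16, 1 library of 3-week vehicle mouse 3 and the vehicle library labelled as a tumor, which had between 11.2% and 14.5% mitochondrial counts. All mice are labelled male, but the library labelled 3-week TBT 4 held 348 CPM of Xist against 7.08 CPM of 4 Y-linked genes, and 5-month low-risk 24 held 84.6 CPM of Xist beside 237 CPM of the Y-linked genes. Uninvolved livers 3, 6 and 12 held 102, 101 and 93.95 CPM of the Y-linked genes. Uninvolved livers 1, 5 and 7 held 206, 204 and 194 CPM. In 5-month high-risk 10 the value was 102 CPM. The cause of these low values was not tested. Uninvolved livers 3 and 6 differed by 3.88 in chi-square per gene, against 15.3 for the next closest pair of any group, and were summed and counted as 1 sample, which left 5. The summed level of 5 hepatocyte markers was at least 34420 CPM (the count scaled to a common library total) in every sample. Levels below are CPM after TMM scaling, and comparisons between genes use CPM per kilobase of exon. The p-values are from edgeR's quasi-likelihood test, adjusted by Benjamini-Hochberg over all genes tested, and a gene is said to have risen or fallen where its adjusted p is under 0.05. In bulk RNA, fewer cells of a type and less RNA per cell cannot be told apart.

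The promoters of Cidec, Plin4, G0s2 and Plin2 are shown first, since the results below turn on these genes. Windows run from 250 bases before to 50 bases after a start site and are from RefSeq (GRCm38.p6), 5′ to 3′ on the gene's strand. Capitals mark matches, on either strand, to 8 patterns searched by script: AGGTCA (nuclear receptor half-site), direct repeats of this half-site with a gap of 1 base (DR1) or 4 bases (DR4), the STAT element GAS, the CCAAT box, the TATA box (TATAAA), the GC box (GGGCGG) and the E-box (CACGTG). Cidec lies on the minus strand of chromosome 6 (113424634 to 113435760) and has 2 annotated start sites.
Cidec, chr6:113435711-113436010, minus strand: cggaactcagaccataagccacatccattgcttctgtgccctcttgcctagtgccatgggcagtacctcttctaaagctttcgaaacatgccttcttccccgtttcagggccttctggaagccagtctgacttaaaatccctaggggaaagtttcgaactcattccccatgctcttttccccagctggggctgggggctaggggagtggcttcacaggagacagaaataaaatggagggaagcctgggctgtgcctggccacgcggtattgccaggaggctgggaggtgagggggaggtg
Cidec, chr6:113434715-113435014, minus strand: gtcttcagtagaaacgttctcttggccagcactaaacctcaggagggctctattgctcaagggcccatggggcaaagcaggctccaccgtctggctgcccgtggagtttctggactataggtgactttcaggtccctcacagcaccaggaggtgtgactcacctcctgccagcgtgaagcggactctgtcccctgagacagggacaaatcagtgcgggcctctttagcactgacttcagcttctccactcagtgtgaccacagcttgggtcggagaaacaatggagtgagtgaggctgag
Plin4, chr17:56109733-56110032, minus strand: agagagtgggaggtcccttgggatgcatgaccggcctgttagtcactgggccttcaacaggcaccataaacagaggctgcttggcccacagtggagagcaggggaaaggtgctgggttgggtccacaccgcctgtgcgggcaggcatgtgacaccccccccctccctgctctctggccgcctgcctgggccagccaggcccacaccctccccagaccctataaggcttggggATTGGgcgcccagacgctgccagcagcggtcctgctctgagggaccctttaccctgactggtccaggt
G0s2, chr1:193273139-193273438, minus strand: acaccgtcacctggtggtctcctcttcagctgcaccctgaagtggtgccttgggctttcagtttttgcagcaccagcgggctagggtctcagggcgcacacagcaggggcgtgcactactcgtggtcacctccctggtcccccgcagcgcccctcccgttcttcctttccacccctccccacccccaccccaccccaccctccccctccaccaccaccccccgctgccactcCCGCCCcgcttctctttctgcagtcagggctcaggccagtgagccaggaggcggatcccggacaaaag
Plin2, chr4:86670010-86670309, minus strand: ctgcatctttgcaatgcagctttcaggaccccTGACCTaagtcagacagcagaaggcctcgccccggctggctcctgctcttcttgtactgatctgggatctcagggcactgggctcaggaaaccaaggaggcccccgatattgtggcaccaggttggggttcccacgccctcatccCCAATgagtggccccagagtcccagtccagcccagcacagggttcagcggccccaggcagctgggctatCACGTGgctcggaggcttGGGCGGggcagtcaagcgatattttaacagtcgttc

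Neither Cidec window held any of the 8 patterns, which says only that these letters are not in these 300 bases. In Plin4 the match is a CCAAT box, in reverse orientation, at position -18 from the start site, a pattern found in 37.4% of all 32851 RefSeq promoter windows. G0s2 held a single GGGCGG at -18, a pattern in 35.7% of windows. Plin2 held an AGGTCA half-site at -218 (16.3% of windows), CCAAT at -73, CACGTG at -4 (7.15% of windows) and GGGCGG at 15. The windows of Plin5 also held AGGTCA, at -170 from 1 start site and at 14 from the other. DR1 occurred in 13 of the 32851 windows and DR4 in 5, and neither was found in a window of the 9 members searched (Cidea was not). Plin4 (chr17:56100591-56109803) and Plin5 (chr17:56111601-56117596) are neighbours on the minus strand, with Plin3 on the same chromosome at chr17:56277476-56292873. Cideb (chr14:55754050-55758458) shares 1136 exon bases with Nop9 on the opposite strand. The strand setting of the counting is not given in the sources used here, so reads of Cideb and Nop9 cannot be told apart and the values of Cideb are uncertain.

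In the liver of vehicle mice, Plin2 and G0s2 were the most abundant members per kilobase. At 5 months Plin2 stood at 355 ± 219 CPM per kilobase (mean ± SD, n = 8) and G0s2 at 253 ± 238, a gap smaller than the spread. Plin5 followed at 39.98 ± 19.1, and Pnpla2 (20.2 ± 8.02) and Cideb (19.2 ± 6.64) overlapped each other and Plin3. Cidec stood at 8.47 ± 6.20 and Plin4 at 1.52 ± 1.16. Cidea and Plin1, the adipocyte members, were close to absent at 0.113 ± 0.119 and 0.0977 ± 0.187 CPM per kilobase. The order changed with the group: in 5-month high-risk liver Cidec reached 21.4 ± 10.7 (n = 10), level with Pnpla2 at 21.7 ± 4.68, and in tumors it ranked behind Plin2 and G0s2 alone, at 35.6 ± 23.7 (n = 7), although its spread overlapped that of Plin5 at 31.6 ± 3.00. The share of Cidec in the summed level of the 10 genes per kilobase was 0.577% in 5-month low-risk liver and 5.52% in high-risk liver, while that of G0s2 was 45.9% and 14.96%. Each group's mean and every sample are in the plot of levels by group.

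**Figure D1:**
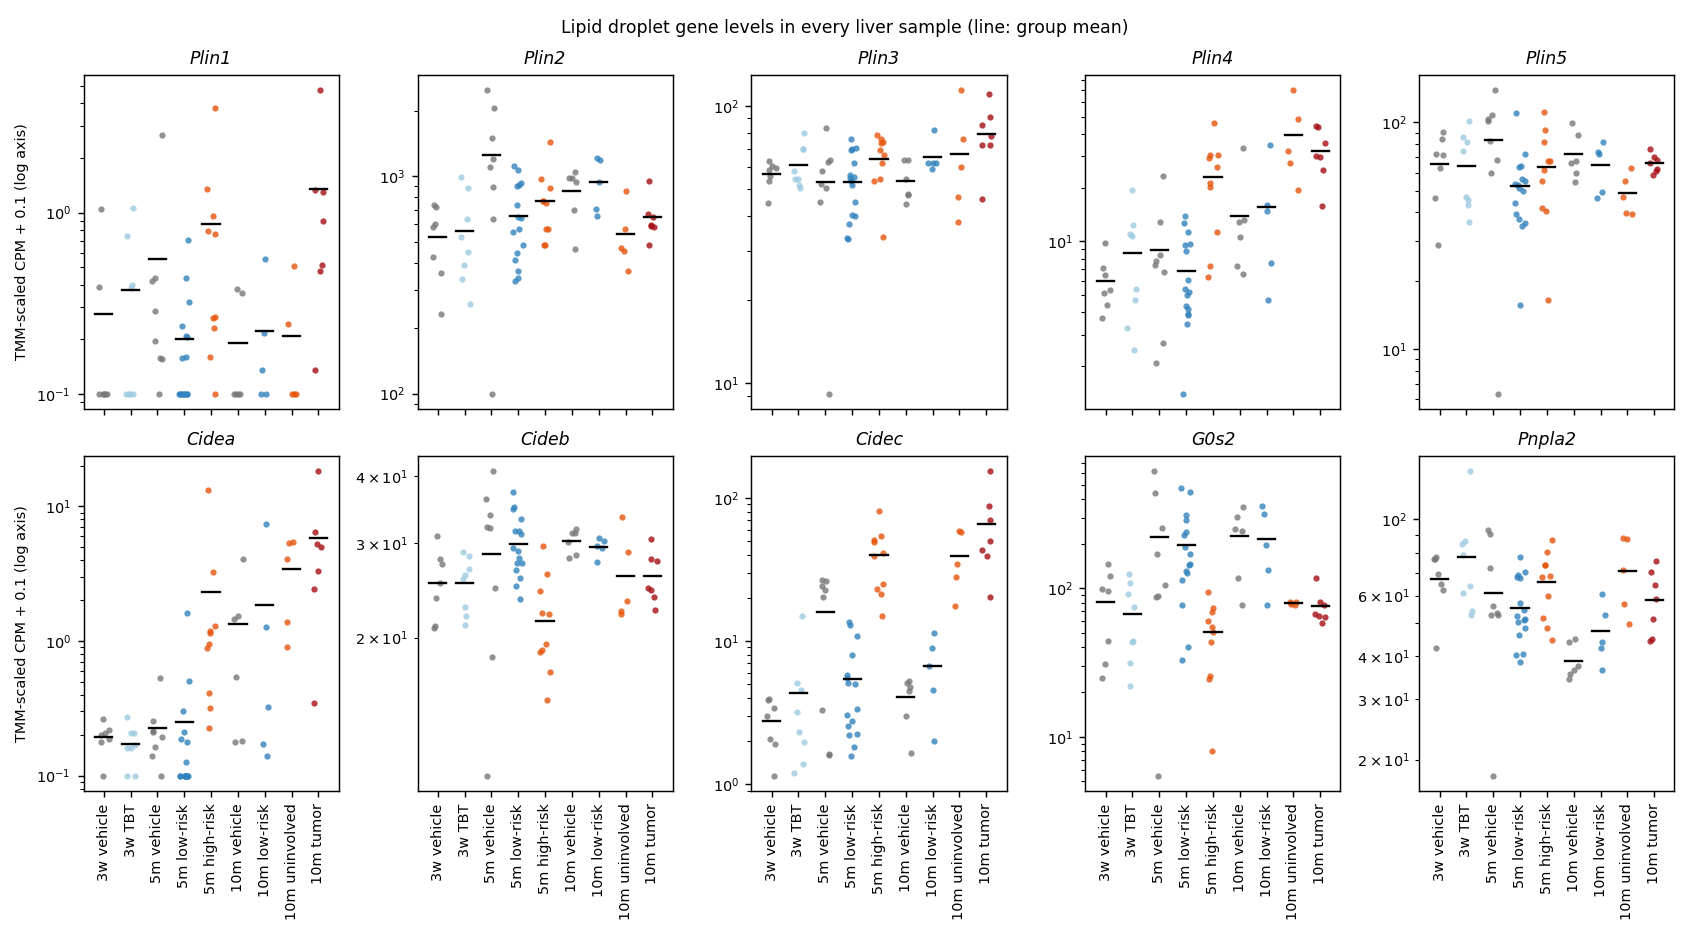
Level of each lipid droplet gene in every sample, as TMM-scaled CPM plus 0.1 on a log axis, 1 point per sample, grouped by age and label, with a line at the group mean. Cidec in all 10 high-risk livers of 5 months (14.9 to 80.96 CPM) lies above all 16 low-risk livers (1.46 to 13.5 CPM), and G0s2 is lower in high-risk, uninvolved and tumor samples than in most low-risk livers.

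The first question was how droplet genes differ between 5-month mice labelled high-risk and low-risk, before the age at which tumors were sampled. Cidec, Cidea and Plin4 were higher and G0s2 and Cideb lower in high-risk liver, while Plin2, Plin3, Plin5 and Pnpla2 did not pass the test. So 5 of the 9 members tested changed, against 38.9% of all 14773 genes tested (20.3% higher and 18.5% lower, with 3 and 2 members), and the median log2 change of the members was 0.29 against -0.01 over all genes. Plin1 had too few counts to be tested. Cidea, with medians of 0 CPM in low-risk and 0.953 CPM in high-risk liver, passed the filter on low counts mainly through high-risk samples. Its place among the 5 is limited by this. A scaling by library totals alone moved the median of all genes to 0.30, and the calls over all genes from 3005 higher and 2740 lower to 6187 higher and 999 lower. The changes given here are those of the TMM fit, whose median over all genes lies near 0.

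Among the coat proteins, Plin4, an adipocyte and muscle perilipin, was at 1.297, 5.20 and 13.7 CPM (lowest, median, highest) in low-risk liver and at 6.24, 23.6 and 45.8 CPM in high-risk liver. Of the 10 high-risk samples, 7 lay above every low-risk sample. In edgeR the log2 fold change was 1.73 (SE 0.33, adjusted p = 9.55e-05). Plin2, the coat protein of hepatocyte droplets, ranged from 328 to 1109 CPM in low-risk and from 485 to 1438 CPM in high-risk liver, and its log2 change of 0.28 (SE 0.26, edgeR adjusted p = 0.41) was within the spread. Plin3, which moves from the cytosol onto new droplets, and Plin5, which holds mitochondria at the droplet, each gave 0.29 on the log2 scale (SE 0.16 and 0.27, edgeR adjusted p = 0.144 and 0.414). Scaled by library totals, Plin2 and Plin3 passed the test as higher (0.62 and 0.62, edgeR adjusted p = 0.0489 and 0.00236), in a fit where the median gene also moved by 0.30. Plin1 was listed with at most 0.603 CPM in low-risk liver and 3.67 CPM in high-risk liver.

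Of the CIDE genes, Cidec separated the 2 groups fully. The share of all genes whose groups do not overlap was not counted, in this or any other comparison, and 38.9% of all genes were called here. Its lowest, median and highest values were 1.46, 4.10 and 13.5 CPM in low-risk liver and 14.9, 40.1 and 80.96 CPM in high-risk liver. The log2 fold change was 3.01 (SE 0.40, 8.07-fold, edgeR adjusted p = 9.34e-07). It was 2.76 (adjusted p = 0.0355) within sequencing batch 1, with 3 high-risk samples, and 3.096 (adjusted p = 1.92e-05) within batch 2, with 7. Per the file name the counts had been adjusted for batch beforehand, so fits within 1 batch may not be independent of the other batch. Cidea, which grows droplets in brown adipocytes, was at 0 CPM in the median low-risk liver, with a highest value of 1.501 CPM. In high-risk liver it ran from 0.126 over 0.953 to 13.1 CPM, and 9 of 10 samples lay above the low-risk mean. Its log2 change was 3.66 (SE 0.71, edgeR adjusted p = 0.000114). Cideb, the hepatocyte member that also loads lipid onto VLDL, was at 23.5, 29.1 and 37.2 CPM in low-risk and 15.2, 20.7 and 29.5 CPM in high-risk liver, a log2 change of -0.45 (SE 0.11, edgeR adjusted p = 0.00131). Scaled by library totals, the change of Cideb was -0.16 (adjusted p = 0.175), no longer a call.

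The inhibitor G0s2 passed the test at 5 months and the lipase Pnpla2 did not. G0s2 was at 32.8, 157 and 472 CPM in low-risk liver and at 7.97, 52.9 and 95.1 CPM in high-risk liver, where every sample lay below the low-risk mean of 197 CPM. Its log2 fold change was -1.97 (SE 0.48, edgeR adjusted p = 0.00138). Within batch 1 it was -1.67 (adjusted p = 0.395) and within batch 2 -2.13 (adjusted p = 0.000836). Pnpla2 ranged from 38.4 to 77.6 CPM in low-risk and from 44.5 to 87.3 CPM in high-risk liver, a log2 change of 0.28 (SE 0.13, edgeR adjusted p = 0.0987). Scaled by library totals, Pnpla2 passed as higher (0.59, edgeR adjusted p = 0.000649). In batch 1 alone 1 of the members was called (Cidec), beside 773 of all 16465 genes tested. In batch 2 alone 7 were called, beside 4472 of 13859 genes, which added Plin3 and Plin5 to the 5 named above. Without the 4 libraries of 5 months that stood apart 6 members were called, beside 5735 of 14448 genes. Plin3 was added there at 0.35 (edgeR adjusted p = 0.0252).

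**Figure D2:**
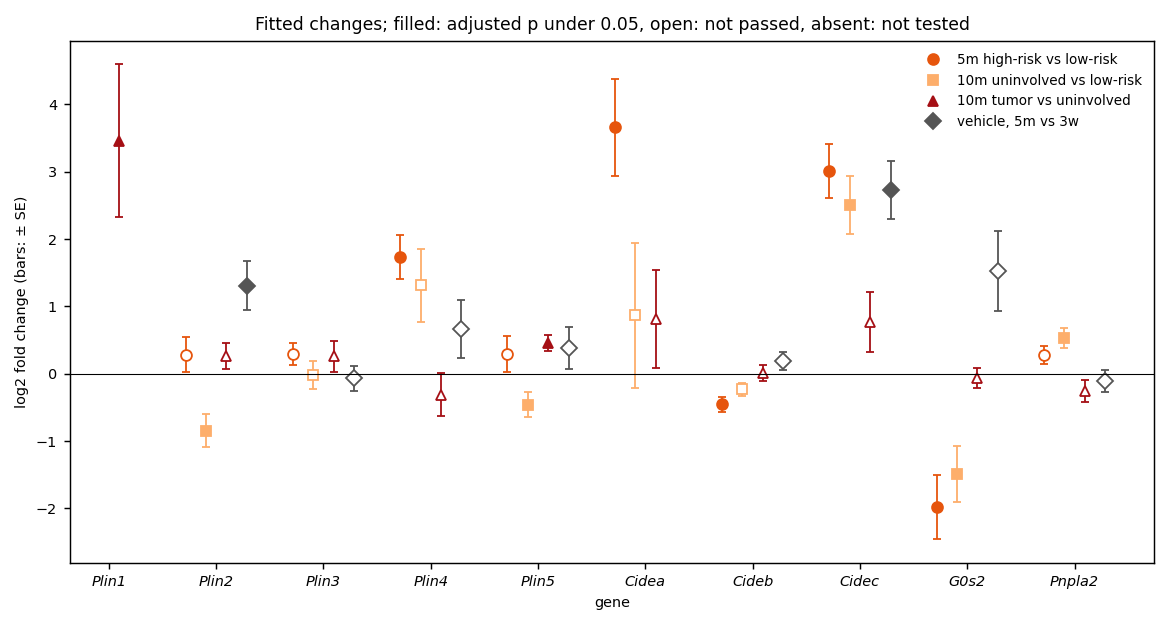
Log2 fold change from edgeR (points) with its standard error (bars) for each gene in 4 comparisons: high-risk against low-risk at 5 months, uninvolved high-risk liver against low-risk at 10 months, tumor against uninvolved liver, and vehicle at 5 months against 3 weeks. Filled points passed an adjusted p under 0.05; Cidec is at 3.01, 2.50, 0.77 and 2.73 in these comparisons and G0s2 at -1.97, -1.49, -0.06 and 1.53.

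Adipocyte RNA was checked beside Plin1, Cidea and Plin4 with 6 markers: Adipoq, Lep, Retn, Cfd, Adrb3 and Ucp1. Their sum was 1.42 to 7.45 CPM in low-risk and 1.32 to 32.6 CPM in high-risk liver at 5 months, with medians of 3.102 and 2.68 CPM, of which Adrb3 had medians of 2.21 and 1.79 CPM, while Lep and Ucp1 had medians of 0 in both groups. Adipoq, the hormone of adipocytes, had a median of 0 CPM in low-risk and 0.206 CPM in high-risk liver. High-risk liver 1 stood out with 32.6 CPM of the 6 markers and the highest Cidea (13.1 CPM) and Plin1 (3.67 CPM) of its group, and high-risk liver 22 followed with 15.6 CPM of markers and 3.18 CPM of Cidea. Without these 2 livers, Plin4 still rose by 1.71 (edgeR adjusted p = 0.000217) and Cidec by 3.16 (adjusted p = 4.91e-07), while Cidea had too few counts to enter the test. Of the marker list, 2 of 6 genes were tested and 1, Cfd, rose (2.07, SE 0.82, edgeR adjusted p = 0.0427). Skeletal muscle, the other tissue known for Plin4, was followed with Ckm, Acta1, Myh4, Tnnt3 and Mylpf. These 5 markers summed to 0.210 to 4.497 CPM in low-risk and 0.314 to 118 CPM in high-risk liver, with medians of 0.795 and 0.766 CPM. The 118 CPM were again in high-risk liver 1, with 30.4 CPM of Plin4, and without this liver Plin4 rose by 1.69 (edgeR adjusted p = 0.000163).

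Markers of other liver cells also moved with the risk label at 5 months, where 38.9% of all genes were called. Of 9 macrophage markers 5 rose and 2 fell, with Gpnmb (5.05, edgeR adjusted p = 2.66e-06), Trem2 (3.16, adjusted p = 1.9e-05) and Cd68 (0.90, adjusted p = 9.71e-06) among the higher and the Kupffer cell gene Timd4 (-2.35, adjusted p = 9.27e-05) among the lower. Their sum had medians of 309 and 407 CPM in low-risk and high-risk liver. Of 7 stellate cell markers 5 rose and 1, Lrat, fell, and their sum had medians of 320 and 635 CPM. Of 4 cholangiocyte markers 3 rose, and their sum had medians of 10.7 and 38.8 CPM. Among 5 hepatocyte markers Apoa1 (-0.81, edgeR adjusted p = 0.000136) and Ttr (-0.66, adjusted p = 0.000716) fell and Tat rose (0.61, adjusted p = 0.0145). No marker of these 4 lists was at 0 in every sample of either group, and the part of these cells in the droplet genes was not tested.

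Against 5-month vehicle liver, high-risk liver differed in 3 of 9 tested members, against 15.8% of all genes tested (8.47% higher and 7.38% lower, with 1 and 2 members). Cidec was at 1.51, 21.3 and 26.7 CPM in vehicle liver, so vehicle mice themselves spanned low and high values, and 6 of 10 high-risk samples lay above all of them. Its log2 change was 1.74 (SE 0.55, edgeR adjusted p = 0.0279). G0s2 in vehicle liver ran from 5.38 over 138 to 614 CPM, and the log2 change was -1.89 (SE 0.59, edgeR adjusted p = 0.0274), with all 10 high-risk samples below the vehicle mean. Cideb changed by -0.41 (SE 0.14, edgeR adjusted p = 0.0415), and by -0.04 (adjusted p = 0.82) when scaled by library totals. Plin4 (1.14, adjusted p = 0.0804) and Cidea (2.92, adjusted p = 0.0612) did not pass edgeR's test; without the libraries that stood apart both did, at 1.34 (edgeR adjusted p = 0.0496) and 3.67 (adjusted p = 0.0197), and Cideb no longer did (-0.42, adjusted p = 0.05). DESeq2 called 5 members, beside 2996 of all 14773 genes. Without the filter on low counts no member passed, with Cidec at 1.69 (edgeR adjusted p = 0.129), G0s2 at -1.95 (adjusted p = 0.0982) and Cideb at -0.44 (adjusted p = 0.177). Of the vehicle livers 7 were in batch 1, and in that batch alone, with 3 high-risk samples, 0 members were called and Cidec and G0s2 changed by 1.27 and -1.89 (edgeR adjusted p = 0.459 and 0.463). Beside these, 5 of 7 stellate cell, 2 of 4 cholangiocyte and 1 of 9 macrophage markers rose, and 2 macrophage and 3 of 5 hepatocyte markers fell. Over all genes, library totals gave 4627 higher and 320 lower calls in place of 1251 and 1090.

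Low-risk liver and vehicle liver of 5 months did not differ in any member by edgeR, where 0.0% of all genes were called. At an unadjusted p under 0.05 there were 3 of 9 members (Plin2, Plin5 and Cidec) and 934 of 14773 genes, and DESeq2 called 0 members and 52 genes. The estimates for those members were -0.77 for Plin2 (SE 0.31), -0.65 for Plin5 (SE 0.31) and -1.27 for Cidec (SE 0.50). Since the high-risk comparisons with low-risk and with vehicle liver share the high-risk samples, their values stand side by side and are not counted as 2 pieces of evidence.

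At 10 months, uninvolved liver of high-risk mice was compared with low-risk liver of the same age. Cidec and Pnpla2 were higher and Plin2, Plin5 and G0s2 lower in uninvolved liver, 5 of 9 tested members, against 52.4% of all 16338 genes tested (27.7% higher and 24.7% lower, with 2 and 3 members). The median log2 change of the members was -0.02 against 0.05 over all genes. By library totals alone the median of all genes was 0.30, and the calls went from 4520 higher and 4041 lower to 6828 and 1839.

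Markers of other cells moved in this comparison too. All 4 cholangiocyte markers rose, among them Epcam (2.20, edgeR adjusted p = 5.86e-06) and Krt7 (2.41, adjusted p = 0.000126), and their sum was 7.06 to 9.94 CPM in low-risk and 22.4 to 38.2 CPM in uninvolved liver. Of 9 macrophage markers 4 rose, with Gpnmb at 6.44 (edgeR adjusted p = 4.57e-08) and Trem2 at 3.00 (adjusted p = 2.46e-07), and 4 fell, with Timd4 at -3.04 (adjusted p = 2.18e-08). Their sum spanned 309.9 to 395 CPM and 234 to 478 CPM. Of 7 stellate cell markers 4 rose, with Col1a1 at 2.34 (edgeR adjusted p = 0.000188) and Pdgfrb at 1.62 (adjusted p = 2.94e-06), and 1 fell, and their sum was 238 to 375 CPM and 334 to 607 CPM. Of 5 hepatocyte markers Alb (-0.41, edgeR adjusted p = 0.0129) and Ttr (-0.60, adjusted p = 0.00193) fell and Tat rose (0.61, adjusted p = 0.0364). The adipocyte markers, with 0 of 2 tested genes called, summed to 2.65 to 8.27 CPM and 3.47 to 11.7 CPM, and the muscle markers to at most 0.641 and 0.599 CPM. The part of these cells in the members' changes was not tested.

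Cidec was at 1.91, 4.44, 6.64, 8.85 and 11.3 CPM in the 5 low-risk livers and at 17.5, 27.8, 34.2, 57.3 and 58.2 CPM in the 5 uninvolved samples. The groups did not overlap, a trait not counted over all genes, and the log2 fold change was 2.50 (SE 0.43, 5.67-fold, edgeR adjusted p = 0.000265). G0s2 was at 77.6, 134, 196, 316 and 359 CPM in low-risk liver, a wide range, and at 77.2, 78.1, 79.7, 80.5 and 80.98 CPM in uninvolved liver, a narrow one at the bottom of it. The change was -1.49 on the log2 scale (SE 0.41, edgeR adjusted p = 0.00718). Pnpla2 was at 36.3, 42.1, 43.9, 52.5 and 60.7 CPM in low-risk and at 49.5, 56.6, 70.95, 87.5 and 88.0 CPM in uninvolved liver, a log2 change of 0.53 (SE 0.15, edgeR adjusted p = 0.00855). At this age the lipase was higher and its inhibitor lower, both past the test.

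The hepatocyte coat proteins fell. Plin2 was at 656, 704, 944, 1190 and 1209 CPM in low-risk liver and at 365, 453, 467, 572 and 854 CPM in uninvolved liver. Of the 5 uninvolved samples 4 lay below every low-risk sample, and the log2 change was -0.85 (SE 0.24, edgeR adjusted p = 0.00817). Plin5 was at 46.5 to 81.4 CPM in low-risk and 39.1 to 62.9 CPM in uninvolved liver, a change of -0.46 (SE 0.19, edgeR adjusted p = 0.0454). That call was lost without the filter on low counts (-0.48, edgeR adjusted p = 0.068), with library totals (-0.23, edgeR adjusted p = 0.307), with uninvolved livers 3 and 6 as separate samples (adjusted p = 0.0592), and without any one of low-risk 4, 9 or 10 or uninvolved 1, 5 or 7 (adjusted p from 0.0789 to 0.121). Plin4 was at 4.57, 7.498, 14.7, 15.9 and 34.4 CPM in low-risk and 19.4, 27.3, 31.9, 48.5 and 70.6 CPM in uninvolved liver, a log2 change of 1.32 that just missed the threshold (SE 0.54, edgeR adjusted p = 0.053). It passed in DESeq2 (1.33, adjusted p = 0.0348) and with library totals (1.59, edgeR adjusted p = 0.0263). Without low-risk liver 10, which held the 34.4 CPM, it was 1.85 (adjusted p = 0.012), and without uninvolved 3 and 6 it was 1.51 (adjusted p = 0.04). Cidea gave 0.87 (SE 1.07, edgeR adjusted p = 0.513), and without low-risk liver 10, which held 7.24 CPM of it against 0.0398 to 1.17 CPM in the others, 3.11 (adjusted p = 0.0286). Cideb gave -0.23 (SE 0.10, edgeR adjusted p = 0.053) and passed without uninvolved liver 12 (-0.33, adjusted p = 0.00115) or without 3 and 6 (-0.24, adjusted p = 0.0466), but stood at 0.00 with library totals (adjusted p = 0.982). Plin3 did not pass the test (-0.02, SE 0.21, edgeR adjusted p = 0.938).

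Against 10-month vehicle liver, 7 of 9 tested members differed in uninvolved liver, against 57.7% of all genes tested (31.2% higher and 26.5% lower, with 3 and 4 members). Cidec was at 1.54, 4.54 and 5.11 CPM (lowest, median, highest of 6) in vehicle liver, below all uninvolved samples, and rose by 3.24 (SE 0.42, 9.44-fold, edgeR adjusted p = 1.55e-05). Pnpla2, at 34.1, 36.8 and 44.7 CPM in vehicle liver, also lay below all uninvolved samples and rose by 0.80 (SE 0.15, edgeR adjusted p = 0.000215). Plin4 rose by 1.46 (SE 0.52, edgeR adjusted p = 0.0245), a call lost without uninvolved liver 1 (1.17, adjusted p = 0.0767) and without the filter on low counts (1.42, adjusted p = 0.0614). G0s2 fell by 1.57 (SE 0.40, edgeR adjusted p = 0.0038), Plin2 by 0.72 (SE 0.23, adjusted p = 0.0143) and Plin5 by 0.65 (SE 0.18, adjusted p = 0.00533). Cideb fell by 0.28 (SE 0.09, edgeR adjusted p = 0.0144), but stood at 0.02 with library totals. That scaling gave 8176 higher and 1728 lower calls over all genes in place of 5093 and 4334. Plin2 and Plin5 did not pass under it either (-0.43 and -0.34, adjusted p = 0.117 and 0.108), in a fit whose median gene stood at 0.38. Beside them 4 of 4 cholangiocyte, 4 of 7 stellate cell and 4 of 9 macrophage markers rose, and 4 macrophage, 3 of 5 hepatocyte and 1 stellate cell marker fell. Low-risk and vehicle liver of 10 months differed in 0 members and 0.0% of genes by edgeR, with 0 members and 688 genes at an unadjusted p under 0.05, and DESeq2 called 0 members and 1 gene.

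Whether the difference between high-risk and low-risk liver itself changed from 5 to 10 months was tested as an interaction. Of the 10 members 0 passed, against 0.448% of all 16084 genes tested, and 2 had an unadjusted p under 0.05. Those were Plin2 (-1.11, SE 0.38, edgeR adjusted p = 0.2) and Cidea (-2.88, SE 1.31, adjusted p = 0.372). For Cidec the difference of differences was -0.48 (SE 0.64, edgeR adjusted p = 0.818) and for G0s2 0.49 (SE 0.66, adjusted p = 0.822), and DESeq2 called 0 members as well. So Plin2, past the test at 10 months and not at 5 months, was not shown to differ between the ages.

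Tumors were compared with uninvolved liver. Plin1 and Plin5 were higher in tumors, 2 of 10 members, against 18.1% of all 16362 genes tested (7.55% higher and 10.5% lower, with 2 and 0 members). Plin1 was at 0 CPM in 3 of the 5 uninvolved samples and at 0.142 and 0.405 CPM in the others, and at 0.0356, 0.798 and 4.66 CPM (lowest, median, highest of 7) in tumors. The fitted log2 change was 3.46 (SE 1.13, edgeR adjusted p = 0.0493), resting on 1 to 136 reads per tumor and at most 22 in an uninvolved sample. Plin5 was at 58.6, 66.0 and 76.4 CPM in tumors and rose by 0.46 (SE 0.12, edgeR adjusted p = 0.0175) over uninvolved liver. The level of Plin5 in tumors did not differ from vehicle liver by the test (-0.16, SE 0.13, edgeR adjusted p = 0.339).

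Cidec was at 20.2, 49.7 and 153 CPM in tumors, a log2 change of 0.77 from uninvolved liver that did not pass the test (SE 0.44, edgeR adjusted p = 0.233). G0s2 was at 58.8, 67.5 and 117 CPM in tumors, a change of -0.06 (SE 0.15, edgeR adjusted p = 0.797). The titles give tumors and uninvolved livers of 6 mice the same numbers. Within these 6 mice Cidec, Plin1 and Plin2 were each higher in the tumor in 6 of 6, Plin5 in 5 of 6 and Pnpla2 in 1 of 6. These counts take uninvolved 3 and 6 as separate samples, although their libraries were near copies. With the mouse as a block, again with uninvolved 3 and 6 as separate samples, Cidec passed edgeR's test (0.71, SE 0.19, adjusted p = 0.0417) and Plin5 did not (0.42, adjusted p = 0.0504). With the block and without mice 3 and 6, whose uninvolved libraries were near copies, Plin5 (0.62, edgeR adjusted p = 0.018) and Plin3 (0.45, adjusted p = 0.037) passed, while Cidec (0.60, adjusted p = 0.0786) and Plin1 (3.601, adjusted p = 0.0602) did not. The call of Plin1 was also lost with library totals (3.40, edgeR adjusted p = 0.0548), without the filter on low counts (3.49, adjusted p = 0.112) and without uninvolved 5, 7, 12 or the pair 3 and 6 (adjusted p from 0.0661 to 0.107), and that of Plin5 without uninvolved 1 or 5 (adjusted p = 0.0524 and 0.0532). Plin2 passed without uninvolved 12 alone (0.49, adjusted p = 0.0472).

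**Figure D3:**
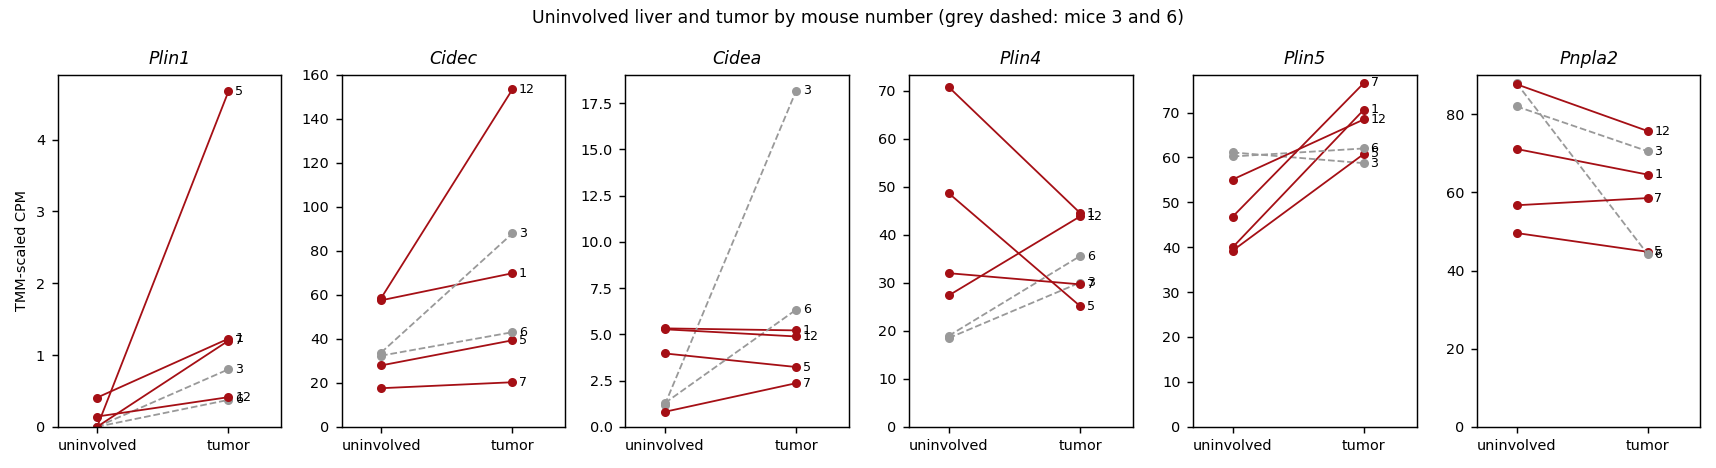
TMM-scaled CPM of 6 genes in uninvolved liver and tumor, lines joining the 2 libraries with the same mouse number (6 mice), grey dashed for mice 3 and 6, whose uninvolved libraries were near copies. Plin1 and Cidec are higher in the tumor in 6 of 6 mice and Pnpla2 in 1 of 6.

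The adipocyte markers were followed beside Plin1 in tumors as well. Their sum was 3.47 to 11.7 CPM in uninvolved liver and 4.16 to 40.2 CPM in tumors. Tumor 5 held 40.2 CPM of markers, 8.67 CPM of Adipoq and the highest Plin1 (4.66 CPM). Tumor 12 held 39.2 CPM of markers but 0.583 CPM of Adipoq, below the tumor median of 0.713 CPM, and 0.412 CPM of Plin1. Adipoq rose in tumors against uninvolved liver (4.14, SE 1.19, edgeR adjusted p = 0.0314), 1 of the 3 markers tested, while the median of Lep was 0.034 CPM and no marker was at 0 in all tumors. Ucp1 had a median of 0.983 and a highest value of 4.22 CPM in tumors, against at most 0.0284 CPM in uninvolved liver. Without tumors 5 and 12, which exceeded 15 CPM of markers, neither Plin1 (2.71, adjusted p = 0.122) nor Plin5 (0.49, adjusted p = 0.0541) passed, and 0 members were called. Cidea, at 0.249, 4.87 and 18.1 CPM in tumors, had its highest value in tumor 3, where the markers summed to 6.91 CPM. The 5 muscle markers summed to 109.5 CPM in tumor 5 and 18.8 CPM in tumor 3, against at most 0.599 CPM in uninvolved liver, with a median of 0.762 CPM over the tumors. Without tumors 3 and 5 Plin1 did not pass (2.54, edgeR adjusted p = 0.134) and Plin5 did (0.52, adjusted p = 0.0338). Of the macrophage, stellate cell and cholangiocyte markers 0 were called by edgeR between tumor and uninvolved liver, and of 5 hepatocyte markers Apoa1 fell (-0.55, adjusted p = 0.0271). The part of adipocytes and muscle in Plin1 was not tested.

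Against 10-month vehicle liver, 7 of 10 members differed in tumors, against 45.9% of all 15293 genes tested (24.8% higher and 21% lower, with 5 and 2 members). Cidec had its largest change of any comparison made here, 4.04 on the log2 scale (SE 0.47, 16.5-fold, edgeR adjusted p = 2.81e-05), with all 7 tumors above all 6 vehicle livers. Plin1 rose by 3.78 (SE 1.04, edgeR adjusted p = 0.00887). It had 0 to 7 reads and a median of 0 CPM in vehicle liver, and so passed the filter on low counts through the tumors. Plin4 rose by 1.19 (SE 0.36, edgeR adjusted p = 0.016), Pnpla2 by 0.58 (SE 0.13, adjusted p = 0.00225) and Plin3 by 0.54 (SE 0.15, adjusted p = 0.00899). G0s2 fell by 1.59 (SE 0.31, edgeR adjusted p = 0.00094), with 7 of 7 tumors below the vehicle mean, and Cideb by 0.24 (SE 0.08, adjusted p = 0.0254), a direction that turned with library totals (0.06). Cidea missed the threshold (2.20, SE 0.87, edgeR adjusted p = 0.0525). DESeq2 called 9 members, beside 7324 of all 15293 genes, adding Cidea (2.22, adjusted p = 0.0329) and, as lower, Plin2 (-0.42, adjusted p = 0.0479). The call of Plin4 was lost without the filter on low counts (1.20, edgeR adjusted p = 0.0521), and held without tumors 3 and 5 (1.27, adjusted p = 0.0307), where Plin1 had too few counts to be tested. Beside these members 4 of 4 cholangiocyte, 4 of 7 stellate cell, 4 of 9 macrophage and 2 of 3 tested adipocyte markers rose, and 3 macrophage, 3 of 5 hepatocyte and 1 stellate cell marker fell. Library totals gave 7413 higher and 874 lower calls over all genes in place of 3800 and 3216. Adding to the vehicles the 1 library that carries a tumor label left 4 members called here and 3 in uninvolved against vehicle liver. That library held 26.4 CPM of Cidec and 58.6 CPM of Pnpla2, above every other 10-month vehicle liver, and 15.1 CPM of G0s2, below them all.

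At weaning, 3-week TBT and vehicle liver were compared. By edgeR 0 of 8 tested members and 0.0% of 14050 genes were called. At an unadjusted p under 0.05 there were 0 members and 474 genes, and DESeq2 called 0 members and 2 genes. Cidec was at 1.047, 2.89 and 3.83 CPM in vehicle liver and 1.10, 2.64 and 14.9 CPM in TBT liver, where 3 of 8 samples lay above all vehicles, and the change was 0.67 (SE 0.50, edgeR adjusted p = 0.999). Plin4 gave 0.54 (SE 0.39) and G0s2 -0.24 (SE 0.45). Leaving out the library labelled TBT 4 gave 0 called members as well.

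Age was followed in vehicle mice of sequencing batch 1. From 3 weeks to 5 months, 2 of 8 tested members rose, against 24.2% of all 14962 genes tested (11.9% higher). Plin2 went from 232, 587 and 740 CPM (lowest, median, highest) to 99.7, 1194 and 2499 CPM, with 6 of 7 older livers above all younger ones and vehicle 9 below them, a log2 change of 1.31 (SE 0.36, edgeR adjusted p = 0.0106) that did not pass without the filter on low counts (1.33, adjusted p = 0.0893). Cidec went to 1.51, 22.5 and 26.7 CPM, with 5 of 7 above all younger livers, a change of 2.73 (SE 0.43, edgeR adjusted p = 7.36e-05). G0s2 gave 1.53 and missed the threshold (SE 0.60, edgeR adjusted p = 0.0683); without the libraries that stood apart it passed (1.66, adjusted p = 0.0182). From 5 to 10 months Cidec fell by 2.21 (SE 0.43, edgeR adjusted p = 0.00271) and Pnpla2 by 0.72 (SE 0.17, adjusted p = 0.00995), 2 of 8 tested members against 14.1% of genes (6.68% higher and 7.41% lower). Without the libraries that stood apart Plin2 also fell in this step (-0.82, edgeR adjusted p = 0.044). Both calls of the second step were lost when the library with the tumor label joined the vehicles (-1.31 and -0.58, edgeR adjusted p = 0.18 and 0.0718). Library totals moved the calls over all genes from 1774 higher and 1842 lower to 845 and 2920 in the first step, and from 999 and 1108 to 1255 and 762 in the second.

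The level of G0s2 per kilobase over that of Pnpla2 was taken as a description of inhibitor message per lipase message, a ratio that no scaling of libraries changes. In 5-month low-risk liver it ran from 2.72 over 10.6 to 32.2 (lowest, median, highest of 16), and in high-risk liver from 0.62 over 2.85 to 6.41 (of 10). At 10 months the vehicle livers held 7.497 to 36.0 and the low-risk livers 7.41 to 28.4, above the uninvolved livers (3.09 to 5.41) and the tumors (3.21 to 5.36), with no overlap. At 3 weeks the ratio was 1.23 to 8.17 in vehicle and 0.880 to 5.53 in TBT liver. The 5-month vehicle livers spanned 1.04 to 29.6. No test was made of the ratio.

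**Figure D4:**
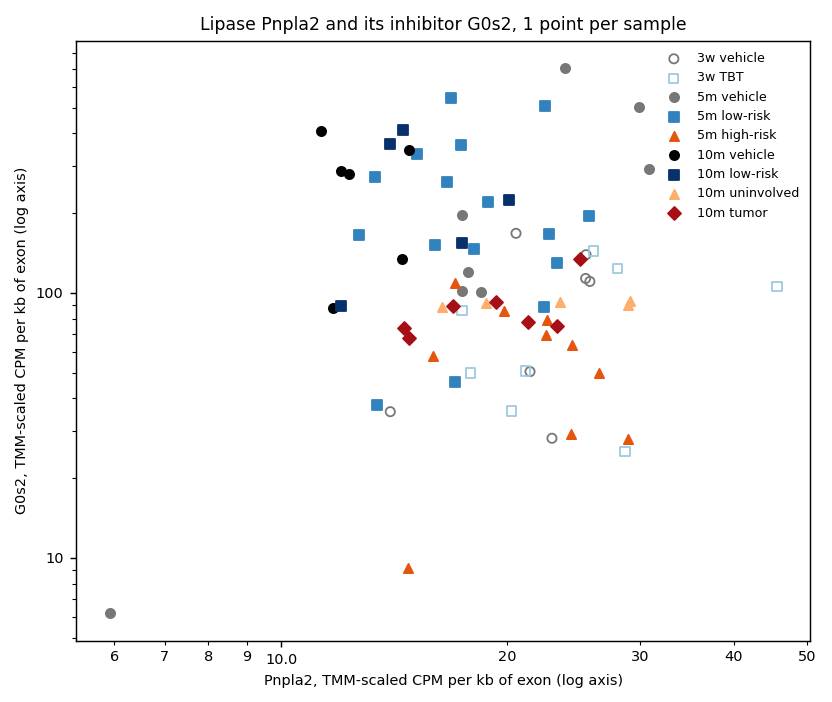
G0s2 against Pnpla2, each as TMM-scaled CPM per kilobase of exon on log axes, 1 point per sample and 1 symbol per group. At 10 months uninvolved livers and tumors lie below the low-risk and vehicle livers in G0s2 per Pnpla2 (3.09 to 5.41 against 7.41 to 36.0).

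Other genes of droplet metabolism were followed in lists written from general knowledge. Of 9 lipases and cofactors, 5 fell and 0 rose in 5-month high-risk against low-risk liver (median -0.57 against -0.01 over all genes, of which 18.5% fell), and 8 fell and 0 rose in uninvolved against low-risk liver (median -0.71 against 0.05, with 24.7% of all genes lower). By library totals 3 fell and 0 rose at 5 months, and 5 fell and 1 rose at 10 months. Aadac, an esterase of the endoplasmic reticulum, fell by 0.93 (SE 0.15, edgeR adjusted p = 6.07e-06) and by 1.296 (SE 0.09, adjusted p = 1.99e-08), and the carboxylesterase Ces1d by 0.96 (adjusted p = 0.00389) and 1.18 (adjusted p = 0.000188). Abhd5, the activator of the lipase that G0s2 inhibits, fell by 0.51 at 5 months (SE 0.18, edgeR adjusted p = 0.0243), but not with library totals (-0.18, adjusted p = 0.409), without the filter on low counts (adjusted p = 0.0583) or in either batch alone (adjusted p = 0.347 and 0.102). In batch 1 alone, of the genes of these lists named for 5 months, Dgat2 and Fabp4 passed. In tumors against uninvolved liver Aadac and Abhd5 rose by 0.75 (edgeR adjusted p = 0.00158) and 0.48 (adjusted p = 0.0314), the 2 of 9 lipase genes called there, against 18.1% of all genes. Abhd5 did not pass without tumors 5 and 12 (adjusted p = 0.0881), tumors 3 and 5 (adjusted p = 0.0608), or any one of uninvolved 1, 5 or 7 (adjusted p from 0.0811 to 0.0861).

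Of 7 regulators and fatty acid carriers, 4 rose and 2 fell in 5-month high-risk liver against low-risk liver, where 38.9% of all genes were called. Those that rose were the fatty acid carrier Cd36 (1.99, SE 0.27, edgeR adjusted p = 1e-06), Fabp4 (1.93, adjusted p = 5.64e-06), the lipoprotein receptor Vldlr (1.71, adjusted p = 0.000238) and the nuclear receptor Pparg (1.18, SE 0.23, adjusted p = 0.000137), a known activator of Cidec. In vehicle liver from 5 to 10 months, however, Pparg rose by 1.37 (SE 0.29, edgeR adjusted p = 0.00505) while Cidec fell. A link between Pparg and Cidec was not tested. In uninvolved liver at 10 months 1 of the 7 rose, Fabp4 (1.09, edgeR adjusted p = 0.000623), and 3 fell, Ppara (-0.95, adjusted p = 3.1e-06), Fabp1 (-0.97, adjusted p = 0.0039) and Creb3l3 (-0.37, adjusted p = 0.0237), a count near the 52.4% of all genes called there. The call of Creb3l3 was lost with library totals (adjusted p = 0.325) and without any one of low-risk 4 or 9 or uninvolved 1, 5 or 7 (adjusted p from 0.0574 to 0.0692). Of 10 triglyceride synthesis genes, 1 rose and 3 fell in each comparison, beside 38.9% and 52.4% of all genes called, and with library totals 4 rose and 1 fell at 5 months. Gpat3, an acyltransferase at the start of triglyceride synthesis, rose by 2.83 at 5 months (SE 0.42, edgeR adjusted p = 3.36e-06) and by 1.62 at 10 months (SE 0.54, adjusted p = 0.0204), though not without uninvolved 3 and 6 (1.27, adjusted p = 0.0602) or without the filter on low counts (adjusted p = 0.0585). Dgat2, which makes the final bond of triglyceride, fell by 1.17 (SE 0.15, adjusted p = 2.26e-07) and 1.22 (SE 0.10, adjusted p = 1.4e-07), beside Gpam and Agpat2.

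Of 14 genes of droplet formation and growth, 2 rose and 3 fell at 5 months, and 2 rose and 5 fell at 10 months, shares near the 38.9% and 52.4% of all genes called, whereas library totals gave 2 and 0, and 5 and 1. Hsd17b13, a hepatocyte droplet enzyme, rose by 0.87 (SE 0.13, edgeR adjusted p = 1.8e-06) and 0.67 (SE 0.14, adjusted p = 0.000993). Bscl2, which encodes seipin, the protein at the site of droplet budding, fell by 0.62 at 10 months (SE 0.10, edgeR adjusted p = 0.00012). Of those that fell at 5 months, Faf2 (-0.25, adjusted p = 0.0112) stood at 0.065 with library totals and did not pass without the filter on low counts (adjusted p = 0.107). In tumors 2 of the 14 rose against uninvolved liver, where 7.55% of all genes rose. These were Hilpda, another inhibitor of the lipase (1.02, SE 0.30, edgeR adjusted p = 0.0324), and Pcyt1a (0.31, adjusted p = 0.0482), and neither passed without tumors 5 and 12 (adjusted p = 0.0833 and 0.128), tumors 3 and 5 (adjusted p = 0.0515 and 0.102), or any one of uninvolved 1, 5 or 7 (adjusted p from 0.0559 to 0.12). Of 3 VLDL assembly genes, 1 fell at 5 months and 2 fell at 10 months, beside 18.5% and 24.7% of all genes lower. Mttp, which transfers lipid onto apolipoprotein B, fell by 0.66 at 5 months (SE 0.13, edgeR adjusted p = 9.04e-05) and 0.55 at 10 months (SE 0.11, adjusted p = 0.00062). Apob fell by 0.39 at 10 months (SE 0.15, edgeR adjusted p = 0.0385). That call was lost with library totals (-0.13, edgeR adjusted p = 0.47). It was also lost without any one of low-risk 2 or 9 or uninvolved 1, 5, 12 or the pair 3 and 6 (adjusted p from 0.0634 to 0.106).

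Of 9496 genes whose mean reached 5 CPM, the profile over all 73 samples that was most like that of Cidec was Ly6d (Pearson r = 0.86, Spearman rho = 0.76, and r = 0.85 without the 2 samples farthest from the median), followed by Ubd (r = 0.84). These coefficients describe log2 values over samples that share groups, ages and scaling, and carry no test. For G0s2 the nearest were Fabp1 (r = 0.85) and Akap1 (r = 0.85), for Plin4 Cidec (r = 0.75) and Osbpl3 (r = 0.74), and for Plin2 Rtf2 (r = 0.88) and Cpt2 (r = 0.82). Plin5 was also nearest to Rtf2 (r = 0.85) and then Iba57 (r = 0.84), Cideb to Aldh9a1 (r = 0.90) and Apoa2 (r = 0.86), Plin3 to Wdr1 (r = 0.87) and Lztr1 (r = 0.86), and Pnpla2 to Por (r = 0.80) and Rhbdd2 (r = 0.78). Within the 16 low-risk livers of 5 months Plin2 varied with G0s2 (r = 0.83, rho = 0.89, and r = 0.88 without the 2 farthest samples) and Plin5 with G0s2 (r = 0.86), while Cidec and G0s2 gave r = 0.60 although the groups moved them in opposite directions. Within the 10 high-risk livers Cidec and G0s2 gave r = 0.47 (0.79 without the 2 farthest samples), and Plin2 and Cidec r = 0.67 (0.86 without them).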

How the data were processed

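Stranded total RNA libraries of liver were sequenced, per the labels' protocols. The authors deposited 1 table of read counts, in whole numbers, for all genes. Per the submitters' processing notes, Trim Galore, HISAT2 and featureCounts were used with mm10, and per the file name the deposited counts had passed through ComBat-seq, a batch adjustment; versions, strand setting and adjustment settings are not given in the sources used here. The effect of this adjustment on the p-values was not tested. All 55536 identifiers matched GENCODE M21, from which positions and exon lengths were taken. Samples were grouped by the labels. The members and lists were chosen with earlier results of these data known. Named were all 10 members, per list and comparison at most 4 genes with the smallest adjusted p and a mean of at least 1 CPM, and the 2 genes nearest to each member with at least 5 CPM, by Pearson r of log2(CPM + 0.5).

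Differences were tested with edgeR 4.0.16 in R 4.3.3, after filterByExpr and TMM scaling, by robust quasi-likelihood fits per age, with batch as a covariate at 5 months and Benjamini-Hochberg adjustment at 0.05; SE are those implied by the F statistic. Tumors were fitted with uninvolved or with vehicle livers alone. Columns outside the labels numbered 0. A library was said to stand apart when its mitochondrial share passed 10%, its detected genes passed 35000 or its total was under 5 M counts. On simulated data with 200 genes changed by 2 on the log2 scale, 189 to 197 were recovered in 6 comparisons, with 5 to 17 false calls. The changed genes were drawn above a floor of mean counts, in equal numbers up and down, with the spread estimated by the fits. The simulation therefore does not cover genes of low counts or comparisons in which a large share of genes changed. Tumor and uninvolved liver of a mouse are paired by title number, though 1 of 6 pairs correlated above 0.1 in their deviations from the group means (-0.16 to 0.61). Alternatives were RLE size factors, library totals, no filter on low counts, DESeq2 1.42.0, other batch terms, samples left out or kept separate, and a replicate block. Counting depth sets the precision of low genes such as Plin1 and Cidea.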

Additional observations from a re-analysis of the deposited data

Results flagged for a closer look

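In 12 of 70 group and gene combinations tested, a single sample lay far from the rest of its group. A mean of at least 1 CPM was asked of a combination, and some reached it through the flagged sample itself. Cidea in 10-month low-risk liver, for example, had a mean of 1.75 CPM and a median of 0.224 CPM. The share is therefore not set against chance, and no share over all genes was computed. Among coat proteins these were Plin1 in tumor 5 (4.66 CPM), Plin2 in 5-month high-risk liver 17 (1438 CPM) and in tumor 12 (953 CPM), Plin3 in 10-month low-risk liver 10 (81.4 CPM) and Plin4 in 10-month vehicle liver 7 (33.2 CPM). Cidea had such a sample in 4 groups: 5-month high-risk liver 1 (13.1 CPM), 10-month vehicle liver 2 (3.998 CPM), 10-month low-risk liver 10 (7.24 CPM) and tumor 3 (18.1 CPM). Cidec (14.9 CPM) and Pnpla2 (138 CPM) were both high in 3-week TBT liver 5, and G0s2 was high in tumor 12 (117 CPM). In the vehicle library labelled as a tumor, which entered no comparison, Cidec (26.4 CPM) and Pnpla2 (58.6 CPM) lay above all 6 vehicle livers of 10 months.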

How the results depend on the processing

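Of 1177 recomputed fold changes of members, 1082 kept their side of the threshold, 55 lost and 38 gained a call, and 2 turned. Direction was compared only where the main or the alternative fit made a call. Changes called in neither fit are among the 1082 even where they turned. Plin5 in high-risk against low-risk liver at 5 months, for example, ran from -0.32 to 0.63 over its alternatives. With library totals alone, an alternative chosen after seeing the data, Cideb turned to 0.021 (uninvolved against vehicle) and 0.055 (tumor against vehicle), and Faf2 to 0.065 (high-risk against low-risk at 5 months); members called went from 3 to 6 in high-risk against vehicle and from 2 to 1 in tumor against uninvolved liver. Without the filter on low counts, members called were 0 in high-risk against vehicle, 1 in tumor against uninvolved and 1 in vehicle at 5 months against 3 weeks. In high-risk against vehicle, DESeq2 and the fit with no batch covariate each gave 5, beside 2996 and 2671 of all genes. Batch 1 alone and the replicate block, whose numbers are no known pairing, each gave 0 there. In high-risk against low-risk, batch 1 alone gave 1. Counting the tumor-labelled library as vehicle gave 3 (uninvolved), 4 (tumor) and 0 (10 against 5 months). In tumor against uninvolved liver, leaving out each uninvolved sample gave 0 to 2 members, and leaving out the libraries of high adipocyte sum, also chosen after seeing the data, gave 0 and those of high muscle sum, likewise, 1. The cause of these changes was not tested.

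Counts over all genes moved by over 1.5 times in several settings: from 5745 to 773 in high-risk against low-risk with batch 1 alone; from 2341 to 4947 (library totals), 1211 (no filter) and 0 (batch 1 alone, replicate block) in high-risk against vehicle; from 9427 to 6019 and from 7016 to 4206 in uninvolved and tumor against vehicle with the tumor-labelled library as vehicle, and to 3972 in the latter with the replicate block; from 2961 to 5346 (all 10-month groups), 1920 (replicate block), 948 (without tumors 5 and 12), 1684 (without tumors 3 and 5) and 1580 to 1611 (without uninvolved 1, 5 or 7) in tumor against uninvolved; from 3616 to 2172 (no filter) and 5757 (without libraries that stood apart) in vehicle at 5 months against 3 weeks; from 2107 to 1128, 3438 (DESeq2), 3700 and 671 (tumor-labelled library as vehicle) in the next step; and from 72 to between 4 and 282 for the risk difference between ages. Depth limits Plin1 and Cidea, which were too low to test in several comparisons.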
